A study of Arabidopsis thaliana with 8 samples.

Results

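The core MeJA response described here is the set of probe sets on the ATH1 array whose transcripts differed at least 2-fold with MeJA, in the same direction, in all 4 pairs of arrays that the study provides. A log2 ratio of MeJA over no MeJA was taken in *Ler* and in *hy5-1*, each under FR light and in darkness, and a member had 4 ratios of at least 1 or 4 ratios of at most -1. Of 22746 probe sets, 891 met this rule. They divide into 551 that were higher with MeJA, 2.42% of all, and 340 that were lower, 1.49% of all. The 4 ratios chose the members, so their size is given below as a description without a test.

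The seedlings were *Arabidopsis thaliana* of the *Ler* wild type and of *hy5-1*, a mutant in that background with a defective gene for the transcription factor HY5. Whole seedlings were collected at 4 days after growth on germination medium with or without 50 µM MeJA, in continuous FR light of 1.5 µmol m-2 s-1 or in darkness. Each of the 8 conditions was read by 1 array, so no condition had a replicate, and precision is limited by having 8 arrays in all. Each probe set had been centred on its median over the 4 FR arrays and, separately, over the 4 dark arrays, so ratios within a light can be read, and the level of a transcript or its difference between lights cannot. No probe set was paired with *HY5*, and the mutant label was not checked on the arrays. Fewer cells of a type and less RNA per cell cannot be told apart in whole seedlings.

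Jasmonates are lipid-derived hormones of defence, fertility and growth restraint. MeJA, the volatile methyl ester, enters plant tissue, is converted to jasmonic acid and then to its isoleucine conjugate, which binds the receptor COI1 with a JAZ repressor and releases MYC-type transcription factors. In Arabidopsis the hormone is known for inducing its own synthesis and inactivation, defence proteins, glucosinolates and anthocyanins, while restraining the growth of seedlings.

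For 270 of the 551 higher probe sets, the annotation named a single gene, giving 269 genes, 49 listed under a symbol and 220 under the locus name. Another 17 were paired with several genes and 264 were not listed in the annotation used here. Among the 340 lower probe sets, 165 named a single gene, 23 of those genes under a symbol and 142 under the locus name, 4 were paired with several genes, 168 were not listed and 3 carried a symbol that matched no locus. The strongest member in either direction, with mean log2 ratios of 11.35 and -8.85 over the 4 pairs, was among the unlisted probe sets. Some genes listed under the locus name carry another name among their RefSeq synonyms, and no role is given for the others.

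The size of the response varied widely among the members. In the higher set the mean of the 4 log2 ratios ran from 1.07 to 11.35 with a median of 2.32, and in the lower set from -8.85 to -1.08 with a median of -2.03. The median over all probe sets was -0.08. All 4 ratios reached 4-fold in 209 higher and 61 lower members, 8-fold in 105 and 15, and 16-fold in 50 and 6. The set of lower transcripts was thus smaller and held fewer large ratios than the set of higher transcripts.

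Before membership is narrowed, each single pair held many more probe sets past the threshold. The share at least 2-fold higher was 12.8% in *Ler* under FR light, 11.2% in *hy5-1* under FR light, 11.2% in dark-grown *Ler* and 12.2% in dark-grown *hy5-1*. The share at least 2-fold lower was 11.2%, 13.4%, 13.1% and 16.1% in the same order. The fourth pair can be read without having helped to choose the probe sets, if these are chosen on the other 3 pairs. Of 714 probe sets higher in the 3 pairs other than *Ler* under FR light, 551 or 77.2% were also higher there. The corresponding shares were 81.6% of 675 for *hy5-1* under FR light, 76.8% of 717 for dark-grown *Ler* and 79.6% of 692 for dark-grown *hy5-1*. In each left-out pair these shares were far above the share of all probe sets. Probe sets lower in 3 pairs were less often lower in the remaining pair, with 62.8% of 541, 65.9% of 516, 63.8% of 533 and 68.1% of 499 in the same order. A change of at least 2-fold the opposite way occurred in the left-out pair for 4.06% to 7.25% of the probe sets higher in the other 3, and for 5.81% to 8.13% of those lower in the other 3.

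**Figure D1:**
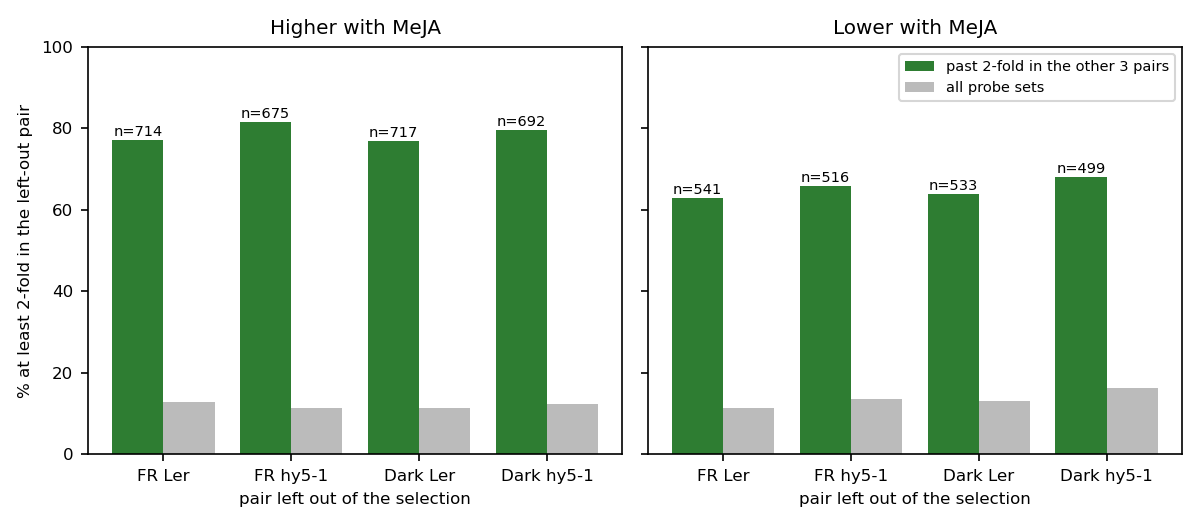
Share of probe sets at least 2-fold changed in one MeJA pair (vertical axis, percent), for probe sets past 2-fold in the same direction in the other 3 pairs (green, number above the bar) and for all 22746 probe sets (grey). The pair left out of the selection is named below each bar. The green bars lie between 76.8% and 81.6% for higher and between 62.8% and 68.1% for lower transcripts, and the grey bars between 11.2% and 16.1%.

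In 543 of the 551 higher members both MeJA arrays lay above both arrays without MeJA under each light, beside 10.8% of all probe sets. The same held in the other direction for 330 of the 340 lower members, beside 16.1% of all probe sets. The rule itself made this arrangement likely, and nothing is read from the difference.

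A gene of jasmonate turnover had one of the largest mean ratios. *JRG21* encodes a jasmonate-induced oxygenase that hydroxylates jasmonic acid and so removes it from signalling. Its centred log2 values under FR light were -4.09 in *Ler* and -4.01 in *hy5-1* without MeJA, and 4.19 and 4.01 with MeJA. On the dark arrays they were -4.11 and -4.87 without MeJA, and 4.38 and 4.11 with MeJA. The arrays with and without MeJA did not overlap in either light, which the rule made likely, and the 4 ratios were 8.28, 8.02, 8.49 and 8.98. Their mean was 8.44 (SD 0.41, n = 4 pairs), and only the ratios of 2 other named genes, AT1G66860 and *scpl30*, had a larger minimum.

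*UGT76E1* encodes a glucosyltransferase that can act on hydroxylated jasmonate. Its values without MeJA were -2.38 and -3.24 in *Ler* and *hy5-1* under FR light and -3.02 and -3.41 in darkness, and those with MeJA were 2.90, 2.38, 3.02 and 3.07. Arrays with MeJA did not overlap those of the same light without it, which the rule made likely. The mean ratio was 5.85 (SD 0.52, n = 4 pairs). Its chromosomal neighbour *UGT76E2*, a close relative, had ratios of 2.03, 2.18, 1.45 and 1.19. Probes of such close relatives may read both transcripts, so the values of the pair are uncertain as separate measurements.

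JA synthesis was represented by 1 member. *OPCL1* encodes the ligase that activates the JA precursor OPC-8:0 for chain shortening. Its values under FR light were -0.62 in *Ler* and -1.02 in *hy5-1* without MeJA, and 0.62 and 1.68 with it, and in darkness -1.09 and -1.45 without and 1.09 and 1.38 with it. The ratios of 1.24, 2.70, 2.17 and 2.83 were lowest in *Ler* under FR light. Of 24 synthesis genes listed, 4 had a named probe set, so the 1 member was 25.0%, beside 2.01% of all probe sets with 1 gene. *AIM1*, whose product acts in beta-oxidation, had ratios between 0.08 and 0.61, whereas those of *JMT*, the JA methyltransferase, ran from -1.42 to 4.60. The signalling factors *MYC3* and *MYC4* and the regulator *ORA47*, the 3 measured genes of 31 listed for perception and signalling, were not members.

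Several of the largest ratios belonged to genes of other families. *scpl30*, a serine carboxypeptidase-like gene, had values of -7.24 in *Ler* and -4.10 in *hy5-1* under FR light without MeJA and of 4.10 and 4.92 with it. In darkness its values were -5.08 and -4.19 without and 4.19 and 4.56 with MeJA. The untreated *Ler* array was the lowest array of each light, and the mean ratio was 9.60 (SD 1.18, n = 4 pairs). The calmodulin-like gene *CML39* (AT1G76640), of the calcium sensor family, had ratios of 6.59, 7.58 and 7.61 in the first 3 pairs and its largest in dark-grown *hy5-1*, with a mean of 7.95 (SD 1.45, n = 4 pairs). *M10*, a late embryogenesis abundant gene, had ratios of 5.71, 7.97, 6.27 and 7.43. Above all these, AT1G66860 had a mean of 10.05 (SD 1.55, n = 4 pairs), with the largest ratio of 12.03 in *hy5-1* under FR light and the smallest of 8.80 in dark-grown *Ler*.

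**Figure D2:**
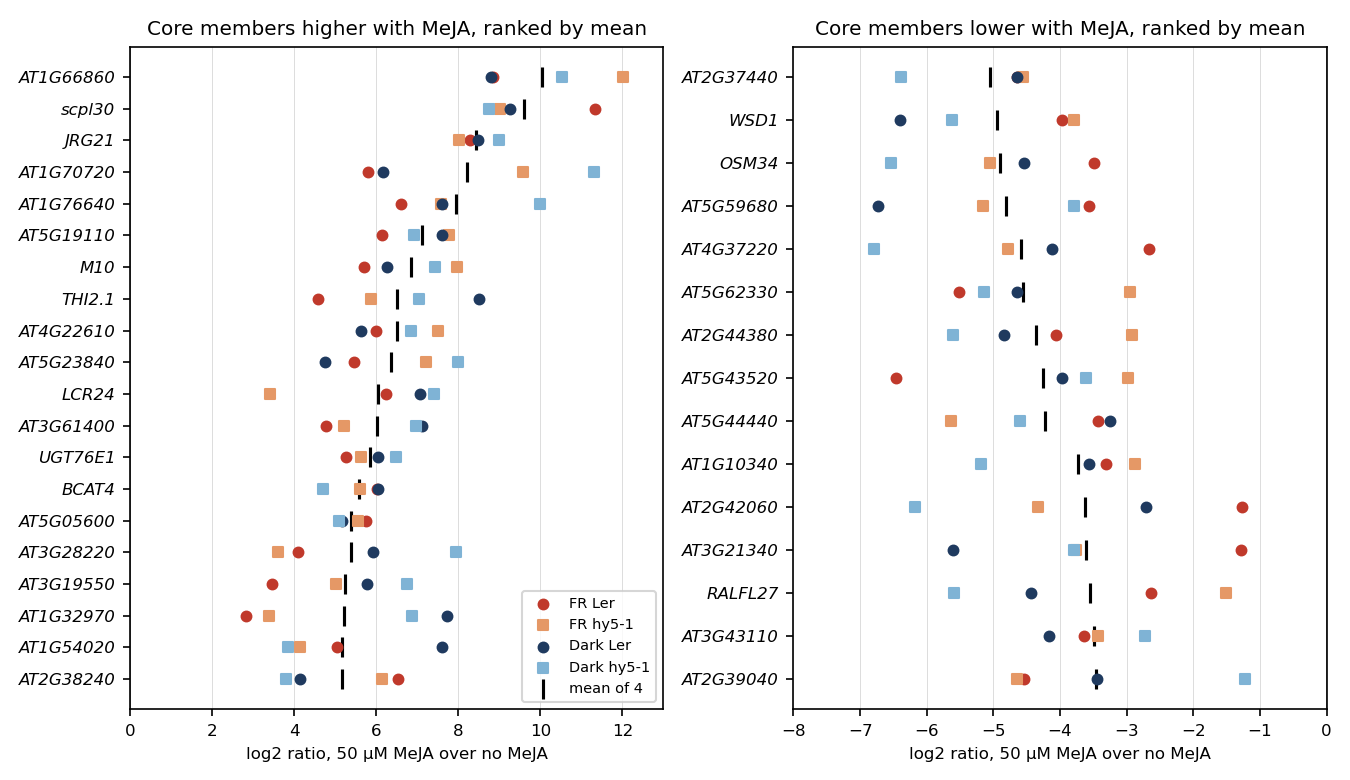
MeJA log2 ratios (horizontal axis) of the 20 higher and the 15 lower core genes with the largest mean ratio, 1 gene per row. Circles are *Ler*, squares are *hy5-1*, red and orange mark FR light, dark and light blue mark darkness, and the black tick is the mean of the 4 pairs. The points of *JRG21* and AT5G05600 have ranges of 0.97 and 0.65, whereas those of AT1G70720 span 5.50.

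Defence proteins formed a second group, and its members did not all go the same way. *THI2.1* encodes a thionin, a small antimicrobial peptide. Its values under FR light were -2.29 in *Ler* and -3.58 in *hy5-1* without MeJA and 2.29 in both genotypes with it. In darkness they were -5.07 and -3.44 without MeJA and 3.44 and 3.60 with it. The 2 ratios in darkness, 8.51 and 7.04, exceeded those under FR light, 4.58 and 5.87. *THI2.2*, which encodes a related thionin, was a member of the lower set. Its values were 0.60 and 2.43 in *Ler* and *hy5-1* under FR light without MeJA and -0.60 and -1.40 with it, and 1.04 and 1.56 in darkness without and -1.04 and -1.55 with it. The mean ratio was 6.50 (SD 1.67, n = 4 pairs) for *THI2.1* and -2.56 (SD 1.15, n = 4 pairs) for *THI2.2*.

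Of 34 JA-responsive protein genes listed, 9 were measured, 4 of them were in the higher set and 1 in the lower set. These were 44.4% and 11.1%, beside 2.01% higher and 1.23% lower of all probe sets with 1 gene. *JAL23* and *JAL33* encode jacalin-type lectins, which bind sugars. *JAL33* had the narrowest range of any named higher gene, 0.25, with a mean of 1.22 (SD 0.12, n = 4 pairs). *JAL23* was uneven, with a ratio of 7.18 in *Ler* under FR light and of 3.4, 2.83 and 4.42 in the other pairs. *CHAT*, whose product forms the leaf volatile hexenyl acetate, had its largest ratio, 7.81, in dark-grown *Ler* and ratios of 3.06, 2.33 and 3.75 elsewhere. In both genes 1 untreated array stood far below the rest of its light, at -5.84 for *JAL23* and at -5.57 for *CHAT*. The defensin gene *PDF1.2* was not a member, with ratios of 0.14, 2.12, -2.86 and -3.20. Of 4 measured pathogenesis-related genes, only *OSM34*, which encodes osmotin, was a member, and it was in the lower set. It was 25.0% of them, beside the same 1.23%. The small cysteine-rich genes outside these lists *LCR24* and *LCR66* had means of 6.03 (SD 1.82, n = 4 pairs) and 4.41 (SD 2.07, n = 4 pairs).

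Several genes of glucosinolate production and sulphur supply belonged to the higher set. Glucosinolates are sulphur-rich defence compounds of the cabbage order, some of them made from methionine. *BCAT4* encodes the aminotransferase that starts the lengthening of the methionine chain. Its values were -3.0 in *Ler* and -2.80 in *hy5-1* under FR light without MeJA and 3.01 and 2.80 with it, and in darkness -2.74 and -2.36 without and 3.30 and 2.36 with it. Treated and untreated arrays did not overlap in either light, which the rule made likely, and the mean ratio was 5.59 (SD 0.62, n = 4 pairs). *GSTU20*, a glutathione transferase gene tied to glucosinolates made from methionine, had ratios of 2.09, 1.36, 1.95 and 3.20. *UGT74B1* encodes the glucosyltransferase that makes the last precursor before sulphation. Its ratios were 1.37, 1.26, 1.67 and 1.89. These 3 genes were members among 5 measured of 47 listed, beside 2.01% of all probe sets with 1 gene. *AOP3* and *APK1A* were not members, with mean ratios of 0.28 and -0.55.

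Sulphate reduction showed 2 members among 5 measured genes of 22 listed, or 40.0% beside 2.01% of all probe sets with 1 gene. *SIR* encodes sulphite reductase, and its values under FR light were -0.60 in *Ler* and -0.72 in *hy5-1* without MeJA and 0.60 and 1.01 with it. In darkness they were -0.98 and -0.44 without and 0.44 and 0.76 with MeJA. The 4 ratios of 1.2, 1.73, 1.43 and 1.2 lay close to the threshold and to each other. *APS3*, a gene for ATP sulphurylase, which activates sulphate, had ratios of 1.12, 1.56, 1.12 and 1.92, whereas those of its relative *APS4* ran from -0.28 to -0.01. The glutathione reductase genes *GR* and *GR1* had mean ratios of 0.08 and 0.56.

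Further members touching sulphur metabolism were picked after their values were seen. *GTR2*, for a glucosinolate transporter, had a mean ratio of 1.53 (SD 0.31, n = 4 pairs). *HL*, for a HAL2-like phosphatase of the kind that degrades the by-product of sulphation, had a mean of 2.62 (SD 0.26, n = 4 pairs), and its relative *SAL2* a mean of 1.67 (SD 0.16, n = 4 pairs). *MGL* encodes methionine gamma-lyase, which breaks down methionine, and had a mean of 1.78 (SD 0.16, n = 4 pairs). The methionine sulphoxide reductase genes *MSRB6* and *MSRB9*, whose products repair oxidized methionine, had means of 3.98 (SD 1.1, n = 4 pairs) and 2.38 (SD 0.27, n = 4 pairs). *MSRB6* alone among these had clearly larger ratios in darkness, 4.80 and 5.05, than under FR light, 3.08 and 2.98.

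**Figure D3:**
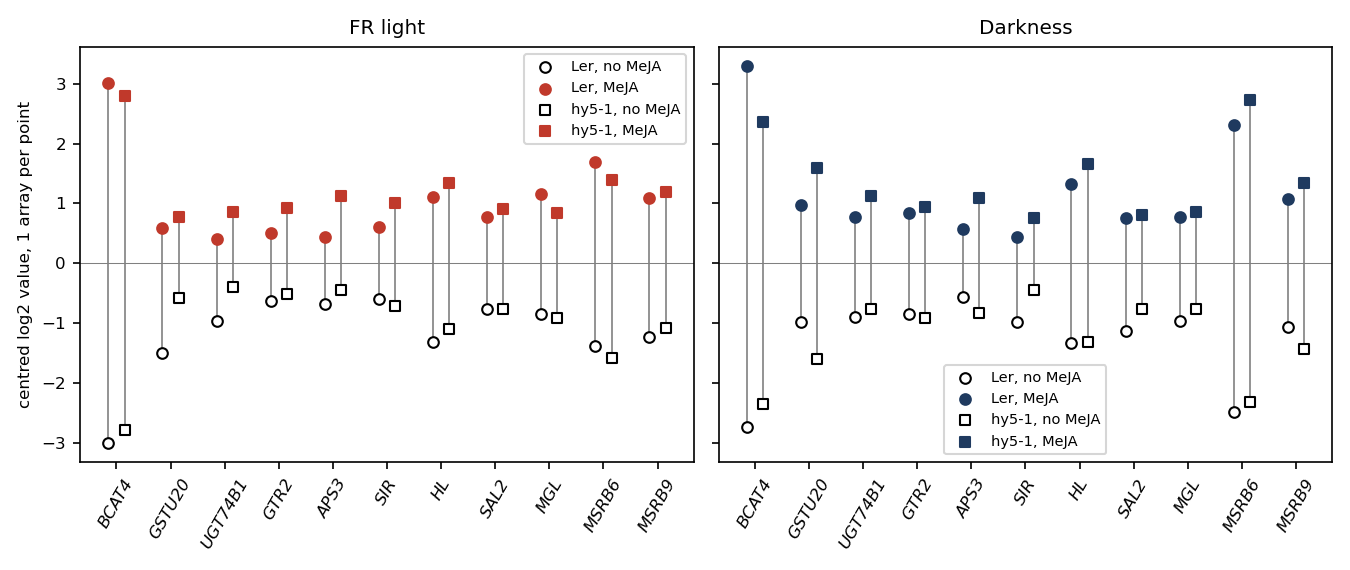
Centred log2 values (vertical axis) of 11 core genes of glucosinolate production and sulphur metabolism on the 4 FR arrays (left) and the 4 dark arrays (right), 1 array per point. Open symbols are arrays without MeJA, filled symbols arrays with MeJA, circles *Ler*, squares *hy5-1*, and each line joins the arrays of a pair. All filled points lie above 0 and all open points below 0, which the centring and the rule made likely. The distance is largest for *BCAT4*.

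Among flavonoid genes, *DFR* and *UGT78D1* were higher members. *DFR* encodes dihydroflavonol reductase, an enzyme of anthocyanin synthesis. Its values under FR light were -1.97 in *Ler* and -2.40 in *hy5-1* without MeJA and 2.69 and 1.97 with it. In darkness they were -0.90 and -0.33 without and 0.33 and 1.2 with MeJA, a much smaller separation. The ratios were 4.66 and 4.37 under FR light and 1.23 and 1.54 in darkness. *UGT78D1*, for a flavonol rhamnosyltransferase, had the opposite order, with 1.93 and 3.21 under FR light and 4.09 and 5.49 in darkness. They were the only members among 7 measured genes matched to the 34 symbols of the flavonoid list. This was 28.6%, beside 2.01% of all probe sets with 1 gene. Among the 7, AT2G43570 was taken by its symbol *CHI*, and its role in flavonoid synthesis was not checked. *UF3GT* had ratios of 3.56 and 4.02 under FR light but of -0.51 and 0.07 in darkness. Of 26 phenylpropanoid and lignin genes listed, 6 were measured, of which *PRX52* was a higher and *PRX71* (AT5G64120) a lower member. Each was 16.7% of the 6, beside 2.01% higher and 1.23% lower of all probe sets with 1 gene. *PRX52*, for a cell wall peroxidase linked to lignin, had a ratio of 7.32 in *Ler* under FR light and of 3.10, 2.55 and 2.46 in the other pairs. Its large ratio rests on the *Ler* pair under FR light, where the untreated array was at -5.16. Outside these lists, and chosen after its values were seen, AT3G13610, which carries the name *F6'H1* and acts in coumarin synthesis, had a mean ratio of 2.84 (SD 0.62, n = 4 pairs).

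Enzyme families that modify small molecules supplied many of the named members. The families here and below were matched by gene names, so genes without such a name were not counted. Of 51 measured UDP-glycosyltransferase genes, 8 were in the higher set and none in the lower set, or 15.7% beside 2.01% of all probe sets with 1 gene. The median mean ratio of the 51 was 0.20, beside -0.08 over all probe sets. In single pairs 19, 18, 16 and 15 of the 51 were at least 2-fold higher in *Ler* and *hy5-1* under FR light and then in darkness, beside 12.8%, 11.2%, 11.2% and 12.2% of all probe sets. Besides *UGT76E1*, *UGT76E2*, *UGT74B1* and *UGT78D1*, the members were *UGT71B5* (mean 4.38, SD 0.36), *UGT71B6* (2.63, SD 1.21), *UGT84A3* (2.22, SD 0.24) and *UGT73B4* (1.46, SD 0.17), each over 4 pairs. UGT71B6 is known to glucosylate abscisic acid. UGT84A3 is known to form glucose esters of hydroxycinnamic acids.

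Of 14 measured glutathione S-transferase genes, 4 were in the higher set and 1 in the lower set. These were 28.6% and 7.14%, beside 2.01% higher and 1.23% lower of all probe sets with 1 gene. The family attaches glutathione to reactive compounds. *GSTU26* had a mean of 3.79 (SD 0.41, n = 4 pairs), *GSTU15* of 2.68 (SD 0.93, n = 4 pairs) and *GSTU16* of 1.88 (SD 0.68, n = 4 pairs). *GSTU28* went the other way, with ratios of -2.10, -1.60, -3.33 and -3.56. Its values without MeJA were 1.31, 0.80, 1.83 and 1.51 in *Ler* and *hy5-1* under FR light and then in darkness, and -0.80, -0.80, -1.51 and -2.06 with MeJA. No array with MeJA reached any array of the same light without it, which the rule made likely.

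Other families also held members in both directions. Among 7 genes caught by peroxidase names, *PRX52* and *PRX25* (AT2G41480, mean 2.14, SD 0.80) were higher and *PRX71* (AT5G64120, mean -2.55, SD 0.57) was lower. These were 28.6% and 14.3%, beside 2.01% higher and 1.23% lower of all probe sets with 1 gene. Peroxidase genes without such a name were not counted. Of 22 beta-glucosidase genes, *BGLU16* (1.46, SD 0.34) and *BGLU25* (1.2, SD 0.24) were higher and *BGLU40* (-1.56, SD 0.38) was lower. These were 9.09% and 4.55%, beside the same 2.01% and 1.23%. Outside the lists, and chosen after their values were seen, the glutaredoxin gene *GRX480*, also named *ROXY19*, had a mean of 3.32 (SD 1.1) and *ROXY2* of -2.19 (SD 0.51). The sugar transporter gene *AtVEX1*, also named *SWEET5*, had a mean of 3.21 (SD 1.43) and *SWEET3* of -2.04 (SD 0.51). Each SD is over the 4 pairs.

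Of 29 serine carboxypeptidase-like genes, *scpl30* and *scpl29* (mean 1.70, SD 0.48, n = 4 pairs) were higher, or 6.90% beside 2.01% of all probe sets with 1 gene. Of 22 cytochrome P450 genes, *CYP51G2* was higher with a mean of 4.04 (SD 0.58, n = 4 pairs), or 4.55% beside the same 2.01%. None of 58 probe sets that a search for keywords in gene names took for transcription factors was a member, beside 2.01% higher and 1.23% lower, and their median mean ratio was 0.14. The search missed *tny*, for a factor of the ERF type, a lower member with a mean of -1.66 (SD 0.45, n = 4 pairs) that was picked after its values were seen.

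Further higher genes with a symbol belonged to none of these lists, and except for *4CL8* those given here were picked after their values were seen. *4CL8*, for a ligase-like protein, had values of -2.86 in *Ler* and -1.85 in *hy5-1* under FR light without MeJA and 1.85 and 2.38 with it, and in darkness -2.45 and -2.64 without and 2.45 and 3.45 with it. The mean ratio was 4.99 (SD 0.78, n = 4 pairs). *PMEAMT*, for a methyltransferase on the way to phosphatidylcholine, was more even, with ratios of 3.07, 3.25, 3.27 and 3.75. *EMS1*, for a receptor kinase known from anther development, had 1.52, 1.71, 2.36 and 2.42. Ratios of 2.47, 2.00, 1.69 and 2.17 were found for *TAAC*, an ATP carrier gene of the thylakoid. *NPF6.4* (AT3G21670), of the nitrate and peptide transporter family, ranged from 1.2 under FR light to 3.01 in darkness, both in *hy5-1*.

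Among the lower members, *WSD1* and *OSM34* had the largest means of the genes with a symbol. *WSD1* encodes a wax ester synthase of the plant surface. Its values under FR light were 1.44 in *Ler* and 2.34 in *hy5-1* without MeJA and -2.53 and -1.44 with it. In darkness they were 3.09 and 2.81 without and -3.31 and -2.81 with MeJA. The decrease was larger in darkness, with ratios of -6.40 and -5.62, than under FR light, with -3.97 and -3.78. The values of *OSM34* were 2.09 and 1.40 under FR light and 2.41 and 2.13 in darkness without MeJA, and -1.40, -3.64, -2.13 and -4.41 with it. The *hy5-1* arrays with MeJA were the lowest in both lights, and the mean ratio was -4.90 (SD 1.27, n = 4 pairs). Of all named genes, AT2G37440 had the lowest mean, -5.06 (SD 0.89, n = 4 pairs), with ratios of -4.64, -4.55, -4.65 and -6.38.

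Several lower genes are known from hormone responses, of which *ARR15*, *BAT1* and *RALFL25* were picked after their values were seen. *ARR15* encodes a response regulator that damps cytokinin signalling. Its values were 1.55 in *Ler* and 1.54 in *hy5-1* under FR light without MeJA and -2.77 and -1.54 with it, and in darkness 1.52 and 0.60 without and -0.60 and -0.96 with it. The ratios were -4.32 and -3.09 under FR light and -2.12 and -1.56 in darkness. Of 16 measured genes on the auxin list, *IAA34*, for a repressor of auxin responses, was the only member, with a mean of -1.85 (SD 0.49, n = 4 pairs), or 6.25% beside 1.23% of all probe sets with 1 gene. *BAT1*, for an acyltransferase acting on brassinosteroids, had a mean of -1.64 (SD 0.41, n = 4 pairs). The peptide hormone genes *RALFL27* and *RALFL25* had means of -3.54 (SD 1.82, n = 4 pairs) and -1.99 (SD 0.83, n = 4 pairs).

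Of 32 measured genes for cell wall loosening and remodelling, 2 expansin genes were lower, or 6.25%, and none was higher, beside 1.23% lower and 2.01% higher of all probe sets with 1 gene. Expansins loosen the wall during cell growth. *EXPB1* had ratios of -3.41, -2.71, -2.21 and -1.56, and *EXPA4* of -1.54, -2.05, -1.68 and -1.41. The median mean ratio of these 32 genes was -0.45. Stress and seed genes in the lower set were *LTI30*, for a dehydrin, with ratios of -1.65, -1.80, -1.99 and -2.84, *HIS1-3*, for a stress-induced linker histone and picked after its values were seen, with a mean of -2.79 (SD 0.80, n = 4 pairs), and *OLEO3*, for an oleosin of oil bodies. *COR47*, another dehydrin gene, missed membership through 1 pair, with ratios of -1.34, -1.42, -0.97 and -1.16.

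The response was larger in darkness in more members than it was under FR light. In 267 of the 551 higher members the dark ratio exceeded the FR ratio in both genotypes, and in 89 the FR ratio was the larger in both. The median ratios were 2.11 and 2.18 under FR light in *Ler* and *hy5-1* and 2.41 and 2.61 in darkness. In the lower set the sizes were nearer to each other, with medians of -1.87 and -1.93 under FR light and -1.94 and -2.09 in darkness, and with 109 members larger in darkness and 84 larger under FR light in both genotypes. Both dark ratios exceeded both FR ratios by a further 2-fold or more in 27 higher members, among them *THI2.1* and *MSRB6*, and the reverse held in 8, among them *DFR* and AT2G38240. In the lower set 9 were larger in darkness by this measure, *WSD1*, *GSTU28*, *RALFL27* and *CIL* among them, and 7 were larger under FR light, *CP1* among them. *CIL* and *MSRB6* were picked after their values were seen. *CIL* is related to a regulator of chloroplast protein import genes. *CP1* encodes a cysteine protease. These counts were not taken over all probe sets, so they are not read as a trait of the members. With 1 array per condition these differences have no replicate check, and they were not tested.

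**Figure D4:**
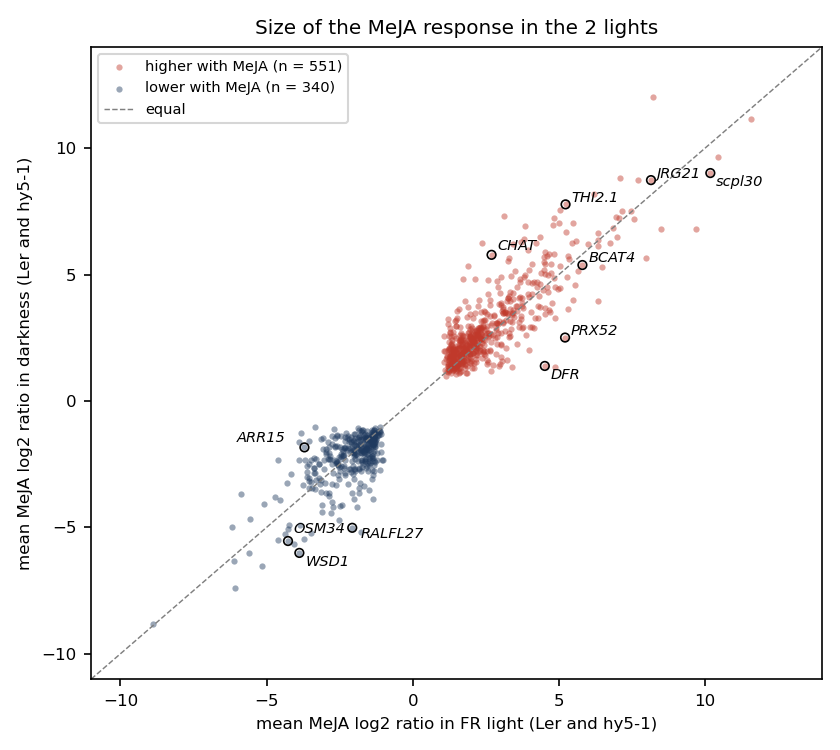
Mean MeJA log2 ratio of the *Ler* and *hy5-1* pairs under FR light (horizontal axis) and in darkness (vertical axis) for the 551 higher (red) and the 340 lower (blue) core probe sets, with equal ratios on the dashed line and selected genes circled. The empty band around 0 follows from the rule, *DFR* and *PRX52* lie on the FR side of the line, and *THI2.1*, *CHAT*, *WSD1* and *RALFL27* lie on the dark side.

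Between genotypes the direction of MeJA was the same by the rule, and its size could still differ. The ratio was larger in *hy5-1* in both lights for 202 higher members and larger in *Ler* for 116. In the lower set the counts were 113 and 94. These counts were not taken over all probe sets either, and they were not tested. The pair of dark-grown *hy5-1* held the largest ratio most often in both sets. A further 2-fold or more separated both *hy5-1* ratios from both *Ler* ratios in 14 higher members, *AtVEX1*, *M10* and AT1G66860 among them, and in 9 the *Ler* ratios were the larger. For *AtVEX1*, picked after its values were seen, the values without MeJA were -0.97 in *Ler* and -3.15 in *hy5-1* under FR light and -0.71 and -4.0 in darkness, and those with MeJA were 1.32, 0.97, 1.01 and 0.71. The untreated *hy5-1* array was thus the lowest of each light, and the treated arrays of a light lay close together.

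The difference between *hy5-1* and *Ler*, averaged over the 4 combinations of light and MeJA, did not enter the rule. Its spread over the combinations did in part, because it holds differences between the ratios that chose the members. The SE and p of a member therefore depend on the selection. Fitted with limma across all probe sets, the averaged difference gave no adjusted p under 0.05, neither among the members nor overall (0.0% of probe sets). At an unadjusted p under 0.05 there were 63 higher members (11.4%) and 47 lower members (13.8%), beside 6.83% of all probe sets. Nothing is read from these shares. The named gene with a symbol and the smallest p was *UGT84A3*, lower in *hy5-1* (log2 difference -0.75, SE 0.14, adjusted p = 0.703 by limma). *OSM34* had a difference of -1.37 (SE 0.44, adjusted p = 0.714) and *LTI30* one of 0.91 (SE 0.27, adjusted p = 0.703). The smallest adjusted p of any member was 0.658, for AT2G14825 and AT1G66630. AT2G14825 was the only higher member with an at least 2-fold difference of the same sign in all 4 combinations, being lower in *hy5-1* with a mean difference of -1.59 (SE 0.17). Of the lower members 3 were higher in *hy5-1* by this measure, AT3G26460 among them, and 1 was lower, beside 59 of all probe sets. These loci were picked after their values were seen.

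Single differences between the genotypes were distributed differently in higher and lower members. Without MeJA, 114 of the 551 higher members (20.7%) differed at least 2-fold between the genotypes under FR light and 105 (19.1%) in darkness, beside 16.0% and 17.3% of all probe sets. With MeJA the counts were 48 (8.71%) and 41 (7.44%), beside 18.0% and 17.1%. The lower members showed the reverse order. Without MeJA 46 (13.5%) and 43 (12.6%) differed under FR light and in darkness, and with MeJA 94 (27.6%) and 78 (22.9%). In each direction the *hy5-1* and *Ler* arrays were nearer to each other in the treatment where the members were high. Within a light, the change of the genotype difference with MeJA is the *hy5-1* ratio minus the *Ler* ratio. Both ratios chose the members, so this order is not independent of the rule, and nothing is read from it. The level of the signal is not held in the deposited values, and its part in this order was not tested.

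**Figure D5:**
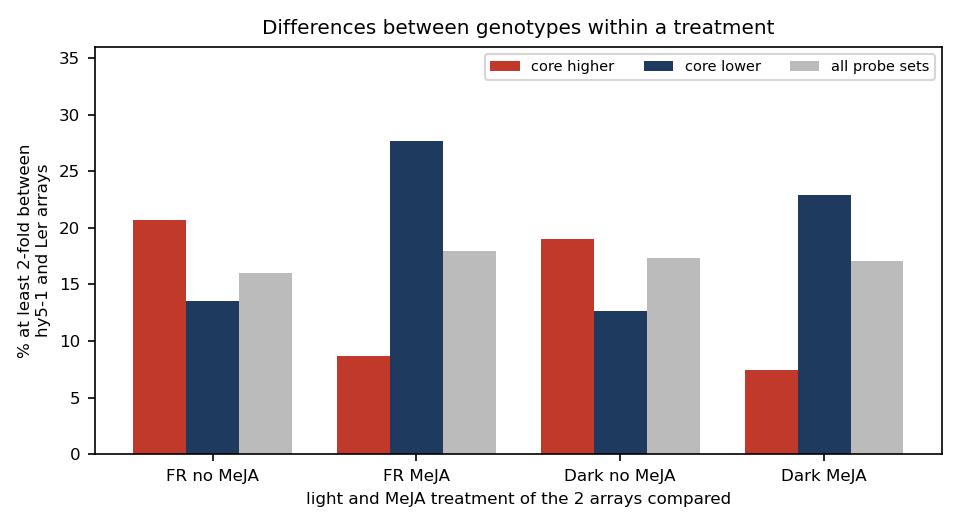
Share of probe sets (vertical axis, percent) that differed at least 2-fold, in either direction, between the *hy5-1* and the *Ler* array of the same light and MeJA treatment (horizontal axis), for the 551 higher members (red), the 340 lower members (blue) and all probe sets (grey). The red bars fall from 20.7% and 19.1% without MeJA to 8.71% and 7.44% with it, the blue bars rise from 13.5% and 12.6% to 27.6% and 22.9%, and the grey bars stay between 16.0% and 18.0%.

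Position on the chromosomes was also shared by some members, and the pairs given here were picked after their values were seen. In the RefSeq gene order of TAIR10.1, 41 of 260 placed higher genes (15.8%) had another higher gene within 2 protein-coding genes, beside 3.89% of all 12224 named genes. They formed 20 groups, 19 of them pairs. In the lower set 10 of 158 placed genes (6.33%) had such a neighbour, in 5 pairs, beside 2.35% of all. Among the higher pairs were AT2G22750 and AT2G22760, with mean ratios of 4.23 and 4.31, and AT4G29690 and AT4G29700, with 3.90 and 3.72. The mean ratios of AT5G19100 and AT5G19110 were unequal, at 3.47 and 7.11, and so were those of AT5G23830 and AT5G23840, at 2.90 and 6.36. *OPCL1* lay beside AT1G20490, with a mean of 1.87. The only group of 3 held AT2G43530, AT2G43535 and AT2G43550, with means of 4.33, 1.99 and 2.75. In the lower set, *PRX71* neighboured AT5G64100, with means of -2.55 and -1.95. Neighbouring genes are often copies of each other, and 39 higher and 13 lower probe sets carry a suffix for probes shared by several transcripts, so part of such pairs may read the same RNA. This was not tested.

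How alike the 4 ratios were varied as much as their size. The range of the 4 ratios had a median of 1.14 in the higher and 1.33 in the lower set. The named higher genes with the narrowest range were *JAL33*, AT3G60450, AT5G52670, AT3G45310 and AT2G16980, from 0.25 to 0.32, and the widest were AT1G70720, *CHAT*, AT1G32970, *PRX52* and *LCR66*, from 5.50 down to 4.58. In the lower set AT4G05150, AT5G11020, AT1G76020, AT5G59240 and AT1G72640 were narrowest, from 0.15 to 0.30, and AT2G42060, AT1G22160, AT3G21340, AT1G44050 and AT4G37220 widest, from 4.91 down to 4.12. AT1G31710, picked after its values were seen, was the only gene with 2 probe sets in the core, and their means of 2.44 (SD 0.17) and 2.14 (SD 0.24) over the 4 pairs differed by little more than their spread.

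The edge of the set is a matter of the threshold. Just inside were AT5G39030, AT2G43660 and AT1G29270 among the higher genes, with smallest ratios of 1.003, 1.004 and 1.004, and *OLEO3*, AT5G59240 and AT3G22940 among the lower genes, at -1.0002, -1.002 and -1.011. Just outside were AT1G77405, AT3G44210 and *hemb2*, at 0.998, 0.996 and 0.988, and AT1G13640, AT3G08750 and AT5G15190, at -0.994, -0.992 and -0.991. As a check of the scaling, the reference gene AT4G26410 had ratios of -0.08, 0.40, -0.12 and -0.11.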

How the data were processed

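The unit deposited by the authors is log2 expression from Affymetrix ATH1 arrays. MAS5 is named in the notes of the submitters, without a version, and GeneSpring GX in the methods of the study. The scaling, any floor on signals and the log base were not given in the sources used here, so logs were read as base 2. Over the 4 arrays of each light the median of a probe set is 0, so no filter on dim signals could be set, and a ratio of dim signals cannot be told from one of bright signals.

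Of 22810 probe sets, 64 controls were removed. Arrays were assigned by their labels. Of the rest, 13436 had a single gene in the platform annotation, named by RefSeq (TAIR10.1). Genes were named by their mean or smallest ratio (20 and 15 higher, 15 and 10 lower), by range (5 each way), by closeness to the threshold (3 each side) and by membership of gene lists, and others were chosen after their values were seen, as the text says where it names them. Members and lists were chosen with earlier results of these data known. Lists that found fewer than 80% of their genes are described by the measured ones only.

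The genotype difference was fitted in limma 3.58.1 (R 4.3.3) with a block for each light and MeJA combination, 3 residual degrees of freedom and Benjamini-Hochberg adjustment, and was tested on simulated data. Ratios were computed in Python 3.11.15 with pandas 2.3.3. Alternatives were quantile normalization, median scaling, other folds, leaving out each pair, and leaving out probe sets with tied lowest values. Promoter sequence was not used here.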

Additional observations from a re-analysis of the deposited data

How the results depend on the processing

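Under quantile normalization and under median scaling, the mean ratio of 0 of 891 members changed sign, and that of 5 and 3 members moved by at least its SD over the 4 pairs. The number of higher members was 551, and it became 583 with quantile normalization, 610 with median scaling and 550 without probe sets with tied lowest values. The number of lower members was 340, and it became 300, 287 and 337. Quantile normalization kept 546 of the higher and 295 of the lower members. At 1.5-fold in each pair there were 950 higher and 876 lower probe sets, and at 4-fold 209 and 61. With each pair left out in turn, 675 to 717 were higher and 499 to 541 lower. Leaving out the *Ler* pair under FR light gave 541 lower probe sets, the *hy5-1* pair under FR light 516 and the dark *Ler* pair 533. No alternative fit for genotype (quantile normalization, a variance trend, each pair left out) called a member, the smallest adjusted p of any probe set being 0.0703 with the trend. With 1 array per condition, no ratio has a replicate check, and the signal above background is not known.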
